A study of Mus musculus with 2 samples.

Results

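Cxcl12, Cxcr4 and Ackr3 encode one chemokine and its receptors, and were followed through the cells of the mouse mitral valve at embryonic day E17.5. They were chosen by symbol and are 3 of the 32285 genes in the deposited count tables. CXCL12 is a secreted chemokine that is held on heparan sulphate at the cell surface. It signals through CXCR4, a receptor coupled to inhibitory G proteins that directs migrating endothelial, blood and neural cells. ACKR3, also called CXCR7, is an atypical receptor that takes up CXCL12 through arrestins and lowers its local concentration. In mouse embryos CXCL12 and CXCR4 are needed for the coronary arteries to form and mature, and loss of ACKR3 gives thickened semilunar valves.

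The mutant group carried Nfatc1-Cre and loxP sites on both Dicer alleles (the label reads Nfatc1-Cre, Dicer loxp/loxp), and the control group is labelled wild type. Nfatc1 is active in the endocardium, the lining of the heart from which valve endothelium and, later, part of the valve mesenchyme derive, so that recombination is not expected in every cell of a leaflet. DICER1 cuts microRNA precursors into mature microRNAs. Each group is a single 10x Genomics 3′ v3 library made from 3 to 4 pooled hearts, with leaflets digested in 0.05% trypsin and viable cells sorted with 7-AAD. With 1 library per genotype, no comparison could be tested, genotype cannot be told apart from embryo pool or library preparation, and every interval below covers counting error only.

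The mutant library had 8250 barcodes and 69475632 UMIs (counted molecules). After filtering 6190 of its cells remained, at a median depth of 9497 UMIs. The control library had 12793 barcodes and 70221728 UMIs, and 10297 of its cells remained, at a median depth of 5665 UMIs. The libraries shared 19 barcodes. By Xist and Y-linked transcripts, 42.5% of mutant cells were female-type and 37.1% male-type, against 93.5% female-type and 1 male-type cell in the control, so that the mutant pool held embryos of both sexes. Cells were clustered without the 3 genes, and 21 of 25 clusters were named after fixed markers. The others, all stromal, held 21.3% of mutant and 21.5% of control cells. The level of a gene in a class is given as CPM, the UMIs of that gene scaled to 1000000 UMIs of that class. In these 3′ libraries a level within one gene can be set against its level elsewhere, and UMI counts do not scale with transcript length.

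DICER1 makes microRNAs that pair through their seed, bases 2 to 8, with 3′ untranslated regions (UTRs). For that reason the longest annotated 3′ UTR of each gene was searched for perfect 7-base seed matches of 11 microRNAs chosen by hand because they have been reported to act on Cxcl12 or Cxcr4, or belong to broadly expressed families. The microRNAs themselves were not measured. Cxcl12 (ENSMUSG00000061353) lies on the plus strand at chr6:117168535-117181367, Cxcr4 (ENSMUSG00000045382) on the minus strand at chr1:128588199-128592293 and Ackr3 (ENSMUSG00000044337) on the plus strand at chr1:90203980-90216751, in GENCODE M21 on GRCm38. Their longest 3′ UTRs measured 5188 bases in Cxcl12, 644 bases in Cxcr4 and 1842 bases in Ackr3. The mature sequences with a match are from RefSeq on GRCm38.p6 and are shown so that the pairing can be read, with the seed in capitals.
miR-9-5p: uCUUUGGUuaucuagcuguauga
miR-139-5p: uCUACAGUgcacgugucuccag
miR-23a-3p: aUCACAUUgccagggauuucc
let-7a-5p: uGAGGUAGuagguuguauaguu

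Cxcr4 held 3 matches and Cxcl12 held 3, at the following places on the transcribed strand, with the match in capitals and its position counted from the first base of the UTR. In Cxcr4, the miR-139-5p heptamer ACTGTAG occurred in tandem, starting at bases 267 and 275, and the miR-9-5p heptamer ACCAAAG at base 503. In Cxcl12, the miR-9-5p match started at base 1559, the let-7a-5p match CTACCTC at base 3488 and the miR-23a-3p match AATGTGA at base 5014.
Cxcr4, miR-139-5p, chr1:128588570-128588576: ctgtgtgtaggACTGTAGaactgtagagg
Cxcr4, miR-139-5p, chr1:128588562-128588568: aggactgtagaACTGTAGaggaagaaact
Cxcr4, miR-9-5p, chr1:128588334-128588340: tggcacttaaaACCAAAGcctgaaatggt
Cxcl12, miR-9-5p, chr6:117177738-117177744: ggcccctagaaACCAAAGgccaaactgag
Cxcl12, let-7a-5p, chr6:117179667-117179673: gggtgaactacCTACCTCtcctcaagaca
Cxcl12, miR-23a-3p, chr6:117181193-117181199: gtctcccagatAATGTGAaaacggtccag

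None of the 11 heptamers was in the Ackr3 UTR, and miR-126a-3p, miR-146a-5p, miR-17-5p, miR-101a-3p, miR-29a-3p, miR-21a-5p and miR-200b-3p matched none of the 3 UTRs. Such matches are common. Of the longest 3′ UTRs of 21004 genes, 12.2% held ACCAAAG, 11.003% held ACTGTAG, 15.1% held AATGTGA and 9.03% held CTACCTC. A match describes the sequence and does not show that a microRNA acts there.

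The classes were checked against their markers before levels were read. Cluster 7, the arterial endothelial-like class, was set apart from the other endothelial clusters by Gja5, Igfbp3 and Hey1, with 13 arterial markers raised. Against all clusters, however, its leading genes were shared coronary genes such as Fabp4, Gpihbp1 and Cd36. Named singly, 556 of its 955 cells were arterial and 364 were capillary endothelial-like. The class was thus coronary endothelium with arterial markers raised on average, and not artery alone. Summed over 15 arterial markers it had 3750 CPM in the mutant and 4514 CPM in the control library, against 699 and 698 CPM in capillary endothelial-like cells. The valve endothelial-like class consisted of cluster 9, led by genes such as Npr3, Cdh11 and Adgrg6, and cluster 13, led by Wnt4 and Hapln1. Cluster 20, venous endothelial-like, was led by Eln, Edn1, Bmp4 and Procr and held only 40 mutant and 81 control cells.

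The leading sites of the 3 genes were the same in both libraries. Cxcl12 was highest in arterial endothelial-like cells, Cxcr4 was highest among the larger classes in the same cells, and Ackr3 was highest in venous and valve endothelial-like cells, where Cxcl12 and Cxcr4 were near 0. Across 24 clusters, the Pearson correlation of log2(CPM + 10) was 0.37 for Cxcl12 and Cxcr4, -0.18 for Cxcl12 and Ackr3 and -0.14 for Cxcr4 and Ackr3. These correlations are descriptions, since the clusters come from the same libraries.

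**Figure D1:**
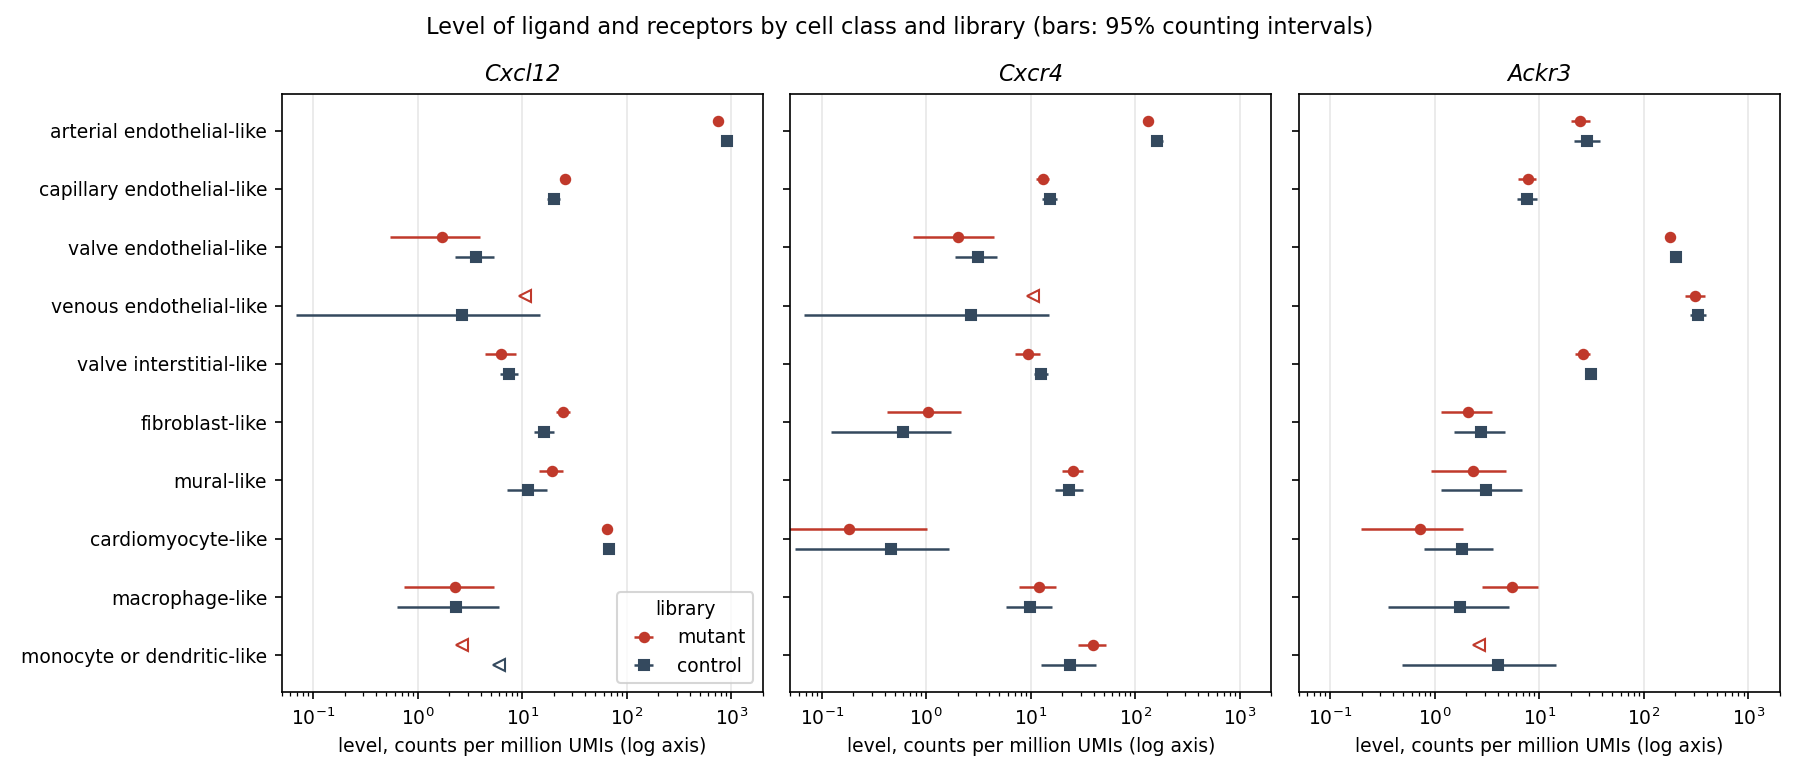
Level of Cxcl12, Cxcr4 and Ackr3 in each cell class, in CPM on a log axis. Red circles are the mutant and dark squares the control library, bars are 95% counting intervals, and open triangles mark the limit of 3 counts where none was found. Cxcl12 and Cxcr4 peak in arterial endothelial-like cells, and Ackr3 in venous and valve endothelial-like cells, in both libraries.

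Cxcl12, the ligand, reached 740 CPM in the 548 arterial endothelial-like cells of the mutant (95% interval 713 to 768) and 915 CPM in the 407 of the control (872 to 960). This was 11.3 times the next class in the mutant and 13.6 times in the control. The next class was cardiomyocyte-like cells, with 65.3 CPM in the mutant and 67.4 CPM in the control. Mast or basophil-like cells followed at 42.2 CPM in the mutant and 43.3 CPM in the control, on 17 and 9 UMIs. All 17 mutant and 8 of the control UMIs were in cluster 19. Named singly, 56 of the 160 cells of the class were mast or basophil-like, and its capillary markers summed to 3579 CPM in the mutant and 1531 CPM in the control, so that this level is not shown to be that of mast cells.

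Lower down, the order of the Cxcl12 levels was the same in both libraries as far as valve interstitial-like cells. The intervals of neighbours overlapped, except that mural-like cells lay above valve interstitial-like cells in the mutant and valve interstitial-like above valve endothelial-like cells in the control. Capillary endothelial-like cells had 25.5 CPM in the mutant and 20.1 CPM in the control, and fibroblast-like cells had 24.7 CPM in the mutant and 16.3 CPM in the control. Mural-like cells, which surround vessels, had 19.1 CPM in the mutant and 11.4 CPM in the control. Valve interstitial-like cells, the mesenchyme of the leaflet, had 6.31 CPM in the mutant and 7.51 CPM in the control. The valve endothelial-like class, at 1.69 CPM in the mutant and 3.57 CPM in the control, overlapped macrophage-like cells at 2.30 CPM in the mutant and 2.33 CPM in the control, a level that free RNA could give. No Cxcl12 UMI was found in monocyte or dendritic-like cells, where 3 counts would be 2.67 CPM in the mutant and 5.999 CPM in the control.

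Cxcl12 was unevenly spread over the arterial endothelial-like cells. At least 1 UMI was seen in 50.5% of them in the mutant and 59.5% in the control, at medians of 6394 and 4424 UMIs a cell, and these shares were 37.8% in the mutant and 49.2% in the control once each cell was thinned to 2000 UMIs. Macrophage-like cells gave a background share of 1.79% in the mutant and 1.19% in the control, at medians of 9809 and 4627 UMIs. The tenth of arterial endothelial-like cells with most Cxcl12 UMIs held 67.0% of them in the mutant and 53.5% in the control, and a single cell held up to 99 UMIs in the mutant and 50 in the control.

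Cxcl12 was higher on average in cells with Gja5, the gap junction gene of arterial endothelium. Arterial endothelial-like cells with a Gja5 UMI had 1470 CPM of Cxcl12 in the mutant (1400 to 1542) and 1519 CPM in the control (1429 to 1613). Those without had 435 CPM in the mutant and 543 CPM in the control, and still held 1165 of the 2812 mutant and 617 of the 1678 control UMIs. The same held in the capillary endothelial-like class, in which the few cells with a Gja5 UMI, 29 in the mutant and 32 in the control, had 523 and 362 CPM, against 13.8 CPM in the mutant and 14.1 CPM in the control in cells without one. Over 24 clusters, Gja5 was also the gene most like Cxcl12 among 7116 ranked genes (r = 0.92), followed by Sema3g (0.80), Igfbp2 (0.79), AU015791 (0.78) and Ammecr1 (0.76), each with its highest level in cluster 7.

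Cxcl12 was also carried by cardiomyocyte-like cells, whose summed arterial markers were low. A UMI was seen in 42.3% of them in the mutant and 32.1% in the control, or 11.4% in the mutant and 10.6% in the control after thinning to 2000 UMIs. Their summed arterial markers were 74.6 CPM in the mutant and 58.9 CPM in the control, about as high as Cxcl12 alone, whereas in arterial endothelial-like cells these markers were several times higher than Cxcl12. In macrophage-like cells the markers summed to 27.1 CPM in the mutant and 32.0 CPM in the control. The cells of cluster 10, most of the class, had 67.6 CPM of Cxcl12 in the mutant and 71.6 CPM in the control. With both libraries summed, Gja5 had its second-highest level of the 24 clusters there, 29.6 CPM against 225 CPM in cluster 7. Ammecr1 was second there too, with 90.9 CPM against 111 CPM in cluster 7. The smaller cluster 18 had 37.1 CPM in the mutant and 6.98 CPM in the control, on 15 and 2 UMIs, a log2 ratio of mutant over control of 2.13 (0.30 to 5.58). Its control level lay under the 10.5 CPM that 3 counts would give, and it reached a mean of 10 CPM only through the mutant. This ratio therefore carries little weight.

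Cxcr4, the signalling receptor, had 131 CPM in arterial endothelial-like cells of the mutant (120 to 143) and 163 CPM in those of the control (145 to 183). At least 1 UMI was found in 44.7% of these cells in the mutant and 42.8% in the control, or 23.3% in the mutant and 26.2% in the control after thinning, against 0.284% of mutant and 0.448% of control cardiomyocyte-like cells, at medians of 16576 and 10484 UMIs. It was spread more evenly than Cxcl12, with at most 9 UMIs in a mutant cell and 5 in a control cell. Cells with a Gja5 UMI had 219 CPM in the mutant and 208 CPM in the control, and those without had 94.7 CPM in the mutant and 136 CPM in the control.

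Blood cells were another site of Cxcr4. The small granulocyte-like class, of 41 mutant and 44 control cells, had 76.5 CPM in the mutant (48.5 to 115) and 109 CPM in the control (63.7 to 175). Cluster 24, basophil-like cells with Mcpt8, had 107 CPM from 19 cells in the mutant and 131 CPM from 9 cells in the control. Monocyte or dendritic-like cells had 39.1 CPM in the mutant and 24.0 CPM in the control, and macrophage-like cells 11.9 CPM in the mutant and 9.89 CPM in the control.

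Among other cells, mural-like cells had 25.1 CPM of Cxcr4 in the mutant and 23.4 CPM in the control. Capillary endothelial-like cells had 12.99 CPM in the mutant and 15.1 CPM in the control. Valve interstitial-like cells had 9.46 CPM in the mutant and 12.6 CPM in the control, and within them cluster 1, led by Col9a3 and Wnt16, was higher (12.6 CPM in the mutant and 16.1 CPM in the control) than cluster 8, with Scx and Fmod (4.23 CPM in the mutant and 2.69 CPM in the control). From capillary endothelial-like to macrophage-like cells the intervals of neighbouring classes overlapped in both libraries. Valve endothelial-like cells, at 2.03 CPM in the mutant and 3.11 CPM in the control, and fibroblast-like cells, at 1.04 CPM in the mutant and 0.596 CPM in the control, were near the floor.

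The genes most like Cxcr4 across clusters were Vasp (r = 0.76), an actin regulator, Rin3 (0.76), Fes (0.74), Nin (0.73) and Tmem154 (0.72). All 5 had their highest level in the granulocyte-like cluster, and for Nin cluster 7 came second.

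Ackr3, the atypical receptor, had 311 CPM in venous endothelial-like cells of the mutant (249 to 383) and 330 CPM in those of the control (274 to 393), where 57.5% of 40 mutant cells and 65.4% of 81 control cells had a UMI. The larger valve endothelial-like class had 177 CPM in the mutant (162 to 193) and 205 CPM in the control (194 to 216). At least 1 UMI was found in 54.0% of its cells in the mutant and 51.8% in the control, or 26.1% in the mutant and 29.8% in the control after thinning. No cluster was named venous endothelial-like under 3 other clusterings, so its border is unsure. Its capillary markers summed to 10375 CPM in the mutant and 9313 CPM in the control, against 471 CPM in the mutant and 578 CPM in the control in valve endothelial-like cells. Macrophage-like cells gave a background share of 0.897% in the mutant and 0.896% in the control.

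Outside the endothelium, Ackr3 marked the epicardial-like cells of the heart surface, with 66.6 CPM from 46 cells in the mutant (47.6 to 90.7) and 70.0 CPM from 124 cells in the control (53.8 to 89.6). Valve interstitial-like cells followed with 25.9 CPM in the mutant and 31.5 CPM in the control. Here cluster 8, with the tendon and cartilage genes Scx, Fmod and Col2a1, was the higher one, with 37.6 CPM in the mutant and 49.2 CPM in the control, against 19.0 CPM in the mutant and 25.2 CPM in the control in cluster 1. Cxcr4 and Ackr3 were therefore opposite in order between these interstitial clusters, in both libraries.

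Arterial endothelial-like cells had 24.7 CPM of Ackr3 in the mutant and 28.9 CPM in the control, within the interval of valve interstitial-like cells, and capillary endothelial-like cells had 7.73 CPM in the mutant and 7.71 CPM in the control. Lymphatic endothelial-like cells had no Ackr3 UMI in 30 mutant and 40 control cells, where 3 counts would be 8.52 CPM in the mutant and 12.4 CPM in the control. The genes most like Ackr3 were Procr (r = 0.86), the endothelial protein C receptor, B4galt4 (0.86), Net1 (0.85), Arl4d (0.85) and Slco2a1 (0.85), a prostaglandin transporter. Each had its highest level in cluster 20 or cluster 13.

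Some arterial endothelial-like cells held ligand and receptor together. UMIs of both Cxcl12 and Cxcr4 were found in 147 of 548 cells in the mutant and 109 of 407 in the control. After thinning, Cxcr4 was found in 26.3% of Cxcl12-positive and 20.02% of Cxcl12-negative cells of the mutant, and in 26.9% and 25.2% of those of the control. The receptors went together more closely: after thinning, Ackr3 was found in 8.65% of Cxcr4-positive and 2.59% of Cxcr4-negative mutant cells, and in 8.58% and 2.66% of control cells. The counts behind these shares are small, with both receptors seen in 50 mutant and 26 control cells.

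The plot of UMI sources weighs each level by how many cells a class had. Arterial endothelial-like cells held 70.4% of all Cxcl12 UMIs of the mutant library (69.0 to 71.8) and 65.2% of those of the control (63.4 to 67.1), while they made up 8.85% of mutant and 3.95% of control cells. They held 49.9% of Cxcr4 UMIs in the mutant and 36.2% in the control. Valve endothelial-like cells held 49.2% of Ackr3 UMIs in the mutant (46.2 to 52.2) and 61.8% in the control (59.7 to 63.9), and made up 4.604% of mutant and 11.6% of control cells. All immune classes together held 0.601% of Cxcl12, 10.8% of Cxcr4 and 1.12% of Ackr3 UMIs in the mutant, and 0.505%, 6.30% and 0.281% in the control. Stromal clusters together held more of Cxcr4, 21.3% of its UMIs in the mutant and 35.8% in the control. Capillary endothelial-like cells held 17.3% of Cxcr4 UMIs in the mutant and 18.5% in the control.

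**Figure D2:**
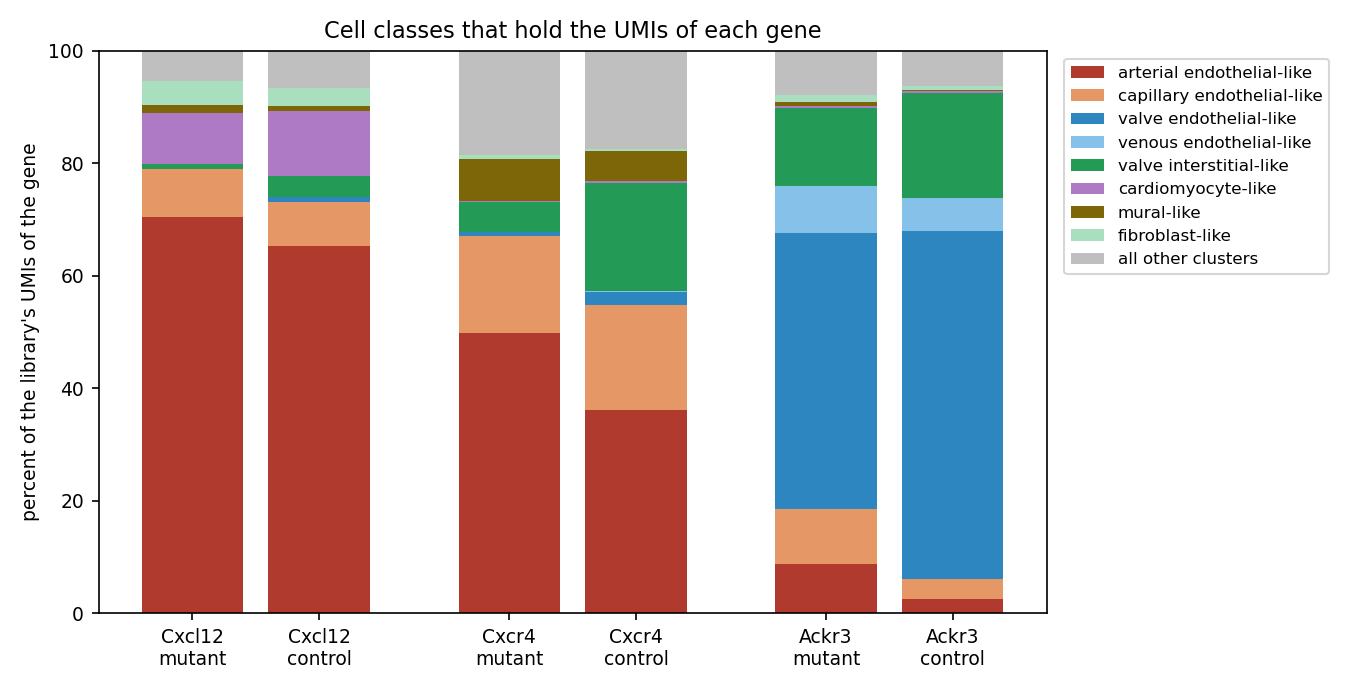
Share of each library's UMIs of Cxcl12, Cxcr4 and Ackr3 by cell class, in percent, with the mutant library left of the control for each gene. Arterial endothelial-like cells (dark red) hold 70.4% of mutant and 65.2% of control Cxcl12 UMIs, and valve endothelial-like cells (blue) hold 49.2% of mutant and 61.8% of control Ackr3 UMIs.

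Summed over all kept cells, the 3 genes stood as follows. Cxcl12 had 64.6 CPM in the mutant and 41.2 CPM in the control, a log2 ratio of mutant over control of 0.65 (0.58 to 0.72). Cxcr4 had 16.2 CPM in the mutant and 13.2 CPM in the control, a log2 ratio of 0.29. Ackr3 had 17.3 CPM in the mutant and 34.2 CPM in the control, a log2 ratio of -0.98 (-1.09 to -0.88). Cxcl12 and Ackr3 are past 1.5-fold, as are 2.87% of the 8968 genes with a mean of at least 10 CPM. When every cluster was given the same weight in both libraries, the log2 ratio was -0.16 for Cxcl12, -0.22 for Cxcr4 and -0.24 for Ackr3. The whole-library ratios of Cxcl12 and Cxcr4 thus changed sign, and that of Ackr3 was smaller. Dissection and genotype, as sources of the unequal cell shares, cannot be told apart.

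Within classes, of 16 pairs of gene and class with at least 50 cells in each library and a mean of at least 10 CPM, 3 were at least 1.5-fold higher in the mutant and none was that much lower. The capillary endothelial-like ratios depended on the cells taken. That of Cxcl12, 0.35 (0.09 to 0.61), ran from -0.29 to 0.99 over 12 alternatives and was 0.65 in cluster 0 and 0.08 in cluster 3. That of Cxcr4, -0.22, ran from -0.93 to 0.34. Over all genes past the same floor, the share at least 1.5-fold apart in either direction was 5.03% in arterial endothelial-like, 0.817% in capillary endothelial-like, 12.5% in valve endothelial-like, 4.77% in valve interstitial-like, 1.68% in fibroblast-like, 5.42% in mural-like and 2.88% in cardiomyocyte-like cells. It was 6.89% in macrophage-like, 22.5% in monocyte or dendritic-like and 45.9% in mast or basophil-like cells, where counts were few. The median log2 ratio of all these genes lay between -0.03 and 0.05 in the 9 larger classes.

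**Figure D3:**
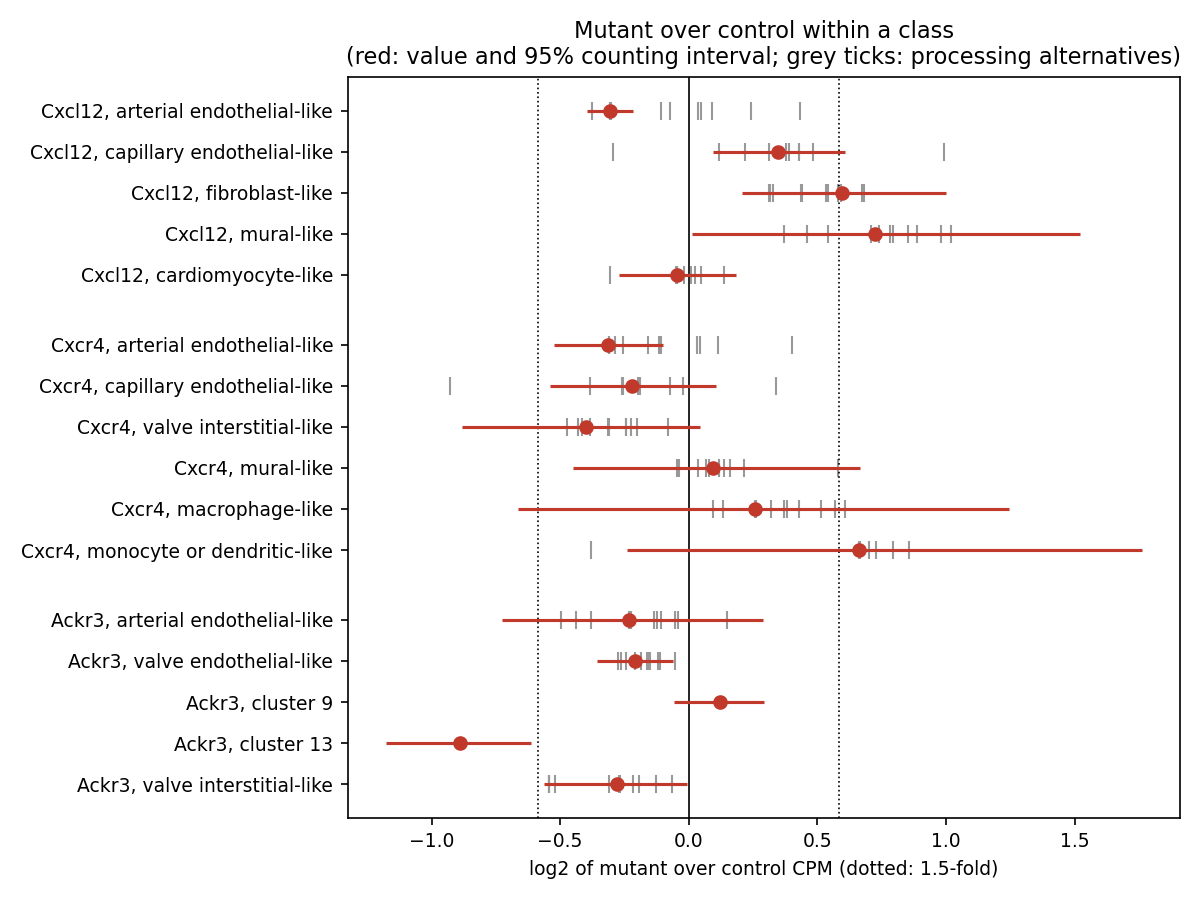
Log2 ratio of mutant over control CPM for each gene and class with at least 50 cells in each library and a mean of at least 10 CPM, mast or basophil-like cells left out. Red points carry 95% counting intervals, grey ticks are the values under other processing, and dotted lines mark 1.5-fold. Most points lie within 1.5-fold, and Ackr3 in cluster 13 lies below it.

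Dicer1 itself was lowest, relative to control, in the valve endothelial-like class, with 39.2 CPM in the mutant and 90.3 CPM in the control, a log2 ratio of -1.20 (-1.51 to -0.92). In valve interstitial-like cells the ratio was -0.49, in capillary endothelial-like cells -0.40, in arterial endothelial-like cells -0.14 (-0.42 to 0.15) and in mural-like cells -0.07. The reads of this assay come from the 3′ end of the transcript and the labels do not give the deleted part, so these values do not check the deletion.

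In arterial endothelial-like cells, Cxcl12 had a log2 ratio of mutant over control of -0.31 (-0.39 to -0.22) and Cxcr4 one of -0.31 (-0.52 to -0.10), both under 1.5-fold. Neither direction was stable: over 11 other ways of processing, the ratio ran from -0.38 to 0.43 for Cxcl12, with 5 values above 0, and from -0.31 to 0.40 for Cxcr4, with 4 above 0. Marker sums of the class differed between the libraries too. Arterial markers summed to 3750 CPM in the mutant and 4514 CPM in the control, and capillary markers to 13032 CPM in the mutant and 10666 CPM in the control. Such sums cannot tell the mix of cells from levels within cells. The part of either in the ratios was not tested. Among cells with a Gja5 UMI the intervals of both genes overlapped between the libraries, and among cells without one both genes were lower in the mutant, with intervals apart. Whether a Gja5 UMI is seen depends on depth, and cells without one had medians of 6430 UMIs in the mutant and 4478 in the control. The part of depth in this difference was not tested.

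Within the mutant pool, cells of different sex type differed in Cxcl12. Female-type arterial endothelial-like cells of the mutant had 932 CPM of Cxcl12 (885 to 981) and male-type cells of the same library 566 CPM (530 to 604), against 902 CPM in female-type control cells (858 to 947). Cxcr4 did not show this split in the same cells, with 133 CPM in female-type and 125 CPM in male-type mutant cells and 159 CPM in female-type control cells. In capillary endothelial-like cells Cxcl12 had 38.7 CPM in female-type mutant cells (33.7 to 44.3), 19.2 CPM in male-type mutant cells and 19.5 CPM in female-type control cells. The fraction of this class with any Cxcl12 UMI in the mutant did not follow its CPM. It was 6.43% where cells were female-type and 7.39% where they were male-type. In the mutant, 29 cells of the class with a Gja5 UMI held 161 of its 340 Cxcl12 UMIs. How these 29 cells were divided by sex type was not tested. Cxcr4 was split there too, with 19.2 CPM of Cxcr4 in female-type mutant cells (15.7 to 23.2), 6.17 CPM in male-type mutant cells (4.27 to 8.62) and 15.2 CPM in female-type control cells (12.8 to 17.8). The intervals leave out the spread of Cxcl12 over cells, in which 55 of the 548 mutant arterial endothelial-like cells held 67.0% of its UMIs. Sex and embryo cannot be told apart here.

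**Figure D4:**
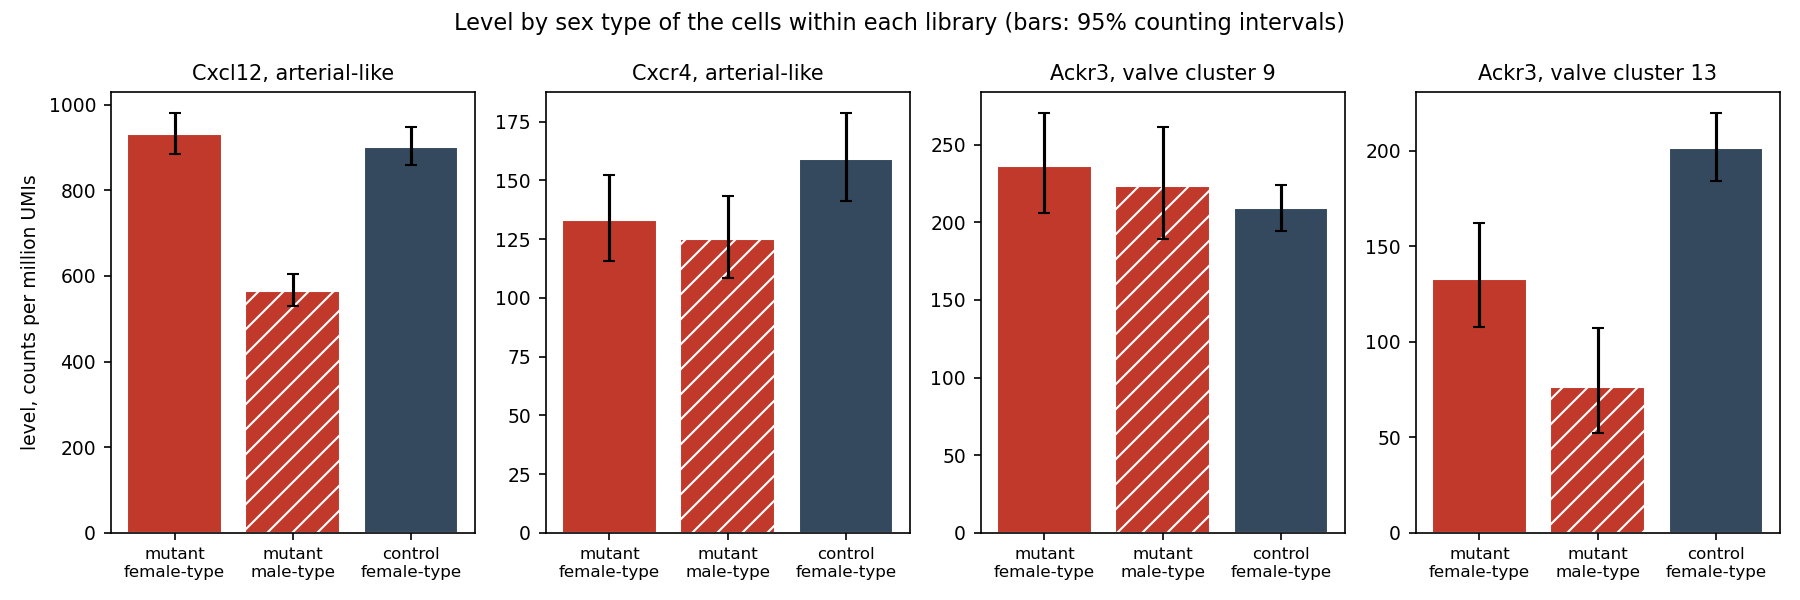
Level in CPM by sex type of the cells, for Cxcl12 and Cxcr4 in arterial endothelial-like cells and Ackr3 in the valve endothelial-like clusters 9 and 13. Red bars are mutant cells (hatched for male-type) and dark bars female-type control cells, with 95% counting intervals. Cxcl12 was 932 CPM in female-type and 566 CPM in male-type mutant cells, and Ackr3 in cluster 13 was lower in both mutant bars than in the control.

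The pairs past 1.5-fold were all of low level. Cxcl12 in fibroblast-like cells had 24.7 CPM in the mutant and 16.3 CPM in the control, a log2 ratio of 0.594 (0.209 to 0.999) that lay just past the limit. It was 0.73 in cluster 5 and 0.16 in cluster 14, and above 0 under all 13 alternatives, of which 9 lay inside 1.5-fold. Cxcl12 in mural-like cells had 19.1 CPM in the mutant and 11.4 CPM in the control, a log2 ratio of 0.72 (0.01 to 1.52), between 0.37 and 1.02 under 11 alternatives, of which 3 lay inside 1.5-fold. Recombination in these cells was not measured. Cxcr4 in monocyte or dendritic-like cells had a log2 ratio of 0.66 (-0.24 to 1.76), which fell to -0.38 among female-type cells.

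For Ackr3 the valve endothelial-like class as a whole had a log2 ratio of -0.21 (-0.36 to -0.06), and its clusters were read apart. In cluster 9, 225 CPM was measured in the mutant (204 to 249) and 208 CPM in the control (193 to 222), which gave a log2 ratio of 0.12 (-0.06 to 0.29). In cluster 13, led by Wnt4 and Hapln1, 108 CPM was measured in the mutant (90.7 to 129) and 201 CPM in the control (184 to 219), a log2 ratio of -0.89 (-1.18 to -0.61), past 1.5-fold as are 20.7% of the 8743 genes past the floor in this cluster. A UMI was seen in 37.5% of 96 mutant and 54.0% of 439 control cells of cluster 13, although the mutant cells were deeper, with medians of 12487 and 5477 UMIs.

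Among female-type cells of cluster 13, Ackr3 had 133 CPM in the mutant (108 to 162) and 201 CPM in the control (184 to 220). Male-type mutant cells had 76.2 CPM (52.4 to 107), below female-type mutant cells, with intervals just apart. The control held 1 male-type cell in all, so male-type mutant cells had no control of their own sex type. The part of sex or embryo in the ratio of the whole cluster was not tested. In the valve endothelial cluster richest in Wnt4 under 5 other clusterings, and in female-type cells alone, the log2 ratio lay between -0.83 and -0.45. At resolution 1.5 (-0.58) and with the 3 genes used in clustering (-0.45) it lay inside 1.5-fold. The leading genes of cluster 13 differed between the libraries as well. In cluster 9, Wnt4 had 182 CPM in the mutant and 29.8 CPM in the control. Hapln1 had 385 CPM in the mutant and 17.2 CPM in the control there. In cluster 13, Hapln1 had 1472 CPM in the mutant and 377 CPM in the control. Wnt4 had 493 CPM in the mutant and 530 CPM in the control of that cluster. Whether cluster borders or levels within cells differed was not tested. Interstitial markers in cluster 13 summed to 976 CPM in the mutant, with 12 of 16 detected, and 1899 CPM in the control, with 15 of 16 detected, and erythroid markers in cluster 9 summed to 29.2 CPM in the mutant and 897 CPM in the control. Their part in the difference was not tested. Dicer1 was lower in both clusters, its log2 ratio being -1.08 for cluster 9 and -1.37 for cluster 13.

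The other genes of the pathway were taken from 6 lists. In valve endothelial-like cells, of 18 measured transcription factors linked to Cxcl12 or Cxcr4, 4 were at least 1.5-fold higher in the mutant and none was that much lower, with a median log2 ratio of 0.02. Sox17, an arterial regulator, had 40.2 CPM in the mutant and 12.1 CPM in the control (log2 ratio 1.73, 1.30 to 2.16), and Hey2, a Notch target, had 68.2 CPM in the mutant and 28.7 CPM in the control (1.25, 0.95 to 1.54). The shear-responsive factors Klf2, with 1404 CPM in the mutant and 699 CPM in the control (1.005, 0.944 to 1.067), and Klf4, with 279 CPM in the mutant and 149 CPM in the control (0.91, 0.77 to 1.04), were also higher. Of all genes in this class, 7.68% were that much higher and 4.84% that much lower in the mutant. With a floor of 50 CPM 2 of the 4 factors were still past 1.5-fold, and at 2-fold 3 were.

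Genes that process CXCL12 or build and trim heparan sulphate were split, with 3 of 20 measured at least 1.5-fold higher in the mutant, 3 lower and a median log2 ratio of 0.09. Dpp4, the peptidase that cuts the amino end of CXCL12, had 97.2 CPM in the mutant and 44.3 CPM in the control (log2 ratio 1.13, 0.89 to 1.38). Sulf2, a sulphatase that trims heparan sulphate outside the cell, had 72.9 CPM in the mutant and 27.4 CPM in the control (1.41, 1.12 to 1.71), and its relative Sulf1 had 90.1 CPM in the mutant and 47.9 CPM in the control. The glypican Gpc6 had 11.5 CPM in the mutant and 24.3 CPM in the control (-1.06), and the sulphotransferases Hs3st3b1 (-0.96) and Hs2st1 (-0.64) were lower too. Sulf1 and Hs2st1 were named after their values were seen, to complete these counts. Hs3st3b1 reached the floor of 10 CPM only through its control level. With a floor of 50 CPM 3 were higher and 0 lower, and at 2-fold 2 were higher and 1 lower.

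Among 4 other chemokine ligands measured in valve endothelial-like cells, Ccl2 had 49.6 CPM in the mutant and 75.2 CPM in the control (log2 ratio -0.60, -0.88 to -0.33) and Ccl7 had 12.8 CPM in the mutant and 24.3 CPM in the control (-0.90, -1.47 to -0.40), both attractants of monocytes. The 1 other receptor measured was Ackr4, the atypical receptor that takes up CCL19, CCL21 and CCL25, with 11.1 CPM in the mutant and 24.3 CPM in the control (-1.10, -1.71 to -0.57). Of 21 genes of receptor coupling and desensitisation, Gnai1, an inhibitory G protein subunit, had 71.6 CPM in the mutant and 25.2 CPM in the control (1.51, 1.21 to 1.81) and Gng11 had 305 CPM in the mutant and 548 CPM in the control (-0.85, -0.95 to -0.74). None of the 5 measured alternative ligands and partners was past 1.5-fold. The widest were Ramp2, with a log2 ratio of 0.39, and Calcrl, with 0.38, which form the adrenomedullin receptor.

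In arterial endothelial-like cells, where 2.57% of all genes lay above the control and 2.46% below it by that fold, the calls among pathway genes were few. Higher by at least 1.5-fold in the mutant were Cxcl16 of 3 other ligands (24.5 CPM in the mutant and 14.2 CPM in the control, log2 ratio 0.77), Ramp3 of 6 partners (16.1 CPM in the mutant and 4.91 CPM in the control, 1.64), Rgs2, a regulator of G protein signalling, of 21 coupling genes (75.5 CPM in the mutant and 40.9 CPM in the control, 0.88), and the venous regulator Nr2f2 of 18 factors (17.4 CPM in the mutant and 9.81 CPM in the control, 0.79). Lower were Sdc1 (13.9 CPM in the mutant and 24.5 CPM in the control, -0.82) and Sulf1 (20.8 CPM in the mutant and 33.8 CPM in the control, -0.70) of 15 processing and heparan sulphate genes, and Foxc1 (7.89 CPM in the mutant and 13.6 CPM in the control, -0.79). Ramp3, Nr2f2 and Foxc1 reached the floor of 10 CPM only through the library in which they were higher, so their calls carry little weight. With a floor of 50 CPM 1 call was left, that of Rgs2, and at 2-fold 1, that of Ramp3. No other chemokine receptor reached the floor of 10 CPM there. The sign for Sulf1 was opposite in the valve endothelial-like class, a difference that was not tested.

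**Figure D5:**
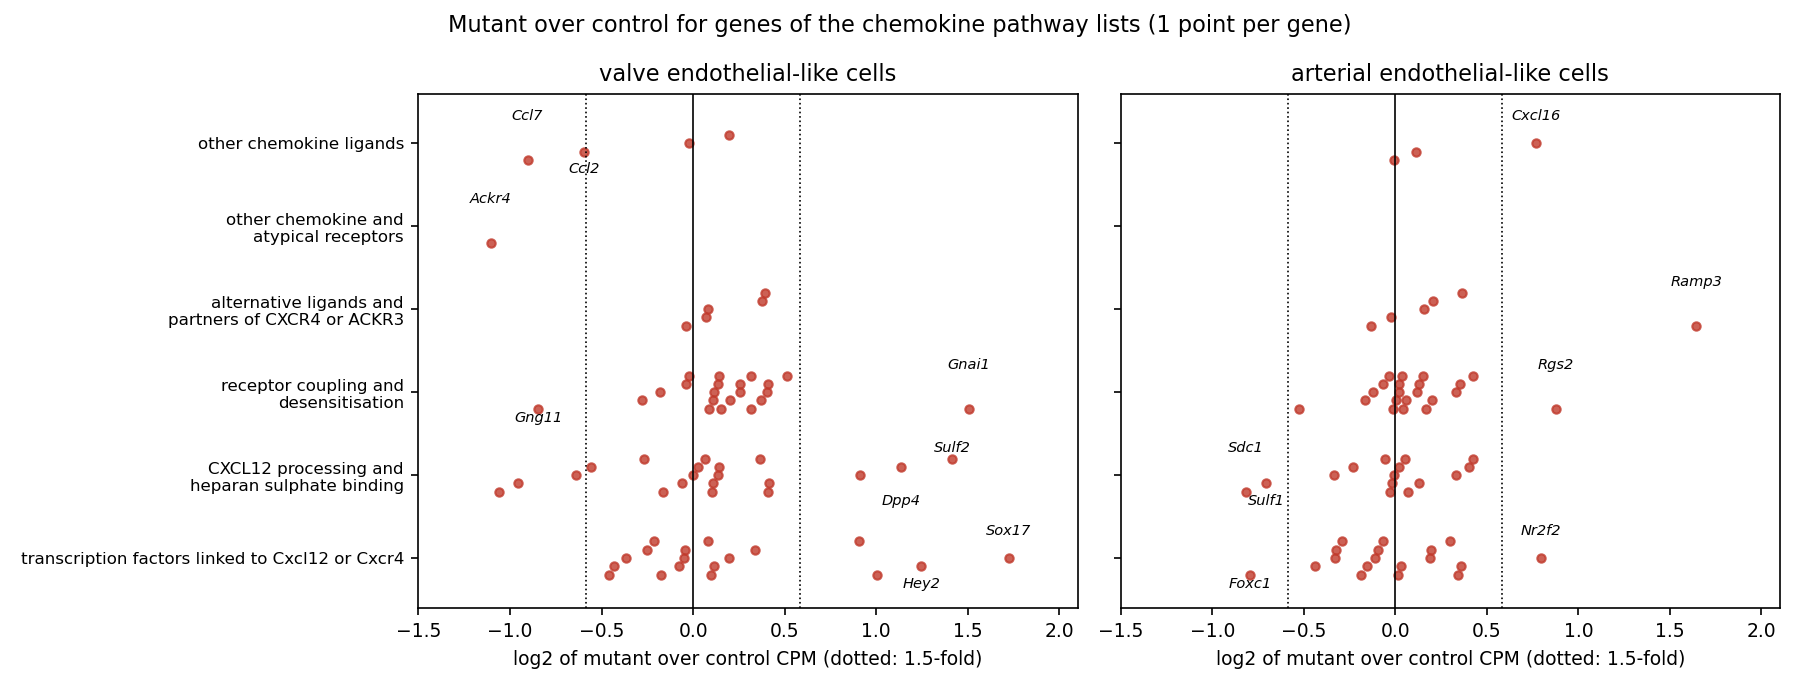
Log2 ratio of mutant over control CPM for the measured genes of the 6 pathway lists in valve endothelial-like cells (left) and arterial endothelial-like cells (right), with 1 point per gene and dotted lines at 1.5-fold. More genes lie past the dotted lines in valve endothelial-like cells, where 12.5% of all genes do, than in arterial endothelial-like cells, where 5.03% do.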

How the data were processed

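Single cells of pooled mitral valve leaflets were profiled with 1 library per genotype. The deposited tables hold UMI counts per gene and barcode, for which the submitters' processing notes name Cell Ranger 5.0.0 and mm10. Barcodes needed at least 1000 UMIs, 500 genes and at most 20% mitochondrial UMIs, and doublets called with Scrublet were removed (213 of 6403 mutant and 462 of 10759 control barcodes). Clustering used scanpy 1.11.5 and leidenalg 0.10.2 without the 3 genes. Clusters were named from marker lists in a family step and a class step, whose score leads were set after seeing the data. UMIs were added up within each class of each library and given as CPM with exact Poisson 95% intervals, and shares with exact Clopper-Pearson intervals. These cover counting error only. Log2 ratios of mutant over control use 0.5 added counts and an exact conditional interval, and none was tested. A ratio was read from at least 50 cells in each library and a mean of 10 CPM, and called at 1.5-fold. The limit for a gene with no UMI is 3 counts. Thinned shares give the expected share at 2000 UMIs a cell. Named pathway genes are up to 4 members of each list with the widest ratios, and likeness is Pearson's r over clusters. The 3 genes and all lists were chosen with earlier results of these data known. Computations used Python 3.11.15, numpy 2.4.6, scipy 1.17.1 and pandas 2.3.3 and were tested on simulated data.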

Additional observations from a re-analysis of the deposited data

Results flagged for a closer look

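The log2 ratio of mutant over control for Ackr3 was -0.89 in valve endothelial-like cluster 13 and 0.12 in cluster 9, on opposite sides of 0 within one class. The interval of cluster 9 (-0.06 to 0.29) includes 0, so that no movement is shown there. The difference between the clusters was not tested, since each genotype has 1 library.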

How the results depend on the processing

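Of 171 alternative values of the log2 ratios, 24 had the opposite sign to the ratio reported, most of them where that ratio was within 1.5-fold. Among ratios past 1.5-fold the sign turned in 2 cases, the log2 ratio of Cxcr4 in monocyte or dendritic-like cells, -0.38 among female-type cells, and that of Cxcl12 over all kept cells, -0.16 when clusters were weighted alike in each library, under which Cxcr4 gave -0.22 and Ackr3 -0.24. In arterial endothelial-like cells the log2 ratio of Cxcl12 was 0.24 with a stricter barcode filter, -0.11 with doublets kept, -0.072 at resolution 1.5, 0.090 with the 3 genes used in clustering, 0.038 without genes that differ between libraries, 0.43 with cells named singly and 0.047 in female-type cells. That of Cxcr4 was 0.11 with the stricter filter, 0.042 with the 3 genes used, 0.033 without differing genes and 0.40 with cells named singly. Ackr3 in valve endothelial-like cells gave -0.052 after thinning, 0.12 in cluster 9 and -0.89 in cluster 13. Cxcl12 CPM in arterial endothelial-like cells of the mutant was 654 with doublets kept, 939 at resolution 1.5, 1250.0 without differing genes, 933 with cells named singly, 932 in female-type cells and 809 thinned. In the control it was 637 with the stricter filter, 705 with doublets kept, 987 at resolution 1.5, 715 with the 3 genes used, 1218 without differing genes, 691 with cells named singly and 999 thinned. Cxcr4 CPM there was, in the mutant, 165 at resolution 1.5, 149 with the 3 genes used, 194 without differing genes, 153 with cells named singly and 161 thinned, and in the control 132 with the stricter filter, 141 with doublets kept, 145 with the 3 genes used, 189.7 without differing genes and 116 with cells named singly. Ackr3 CPM in valve endothelial-like cells was 158 in the mutant and 191 in the control with cells named singly, and 203 in the mutant thinned. With every cell weighted alike, the arterial share was 78.1% in the mutant and 75.3% in the control for Cxcl12 and 57.9% in the mutant and 43.8% in the control for Cxcr4, and the valve endothelial share of Ackr3 was 44.2% in the mutant. The cause of these shifts was not tested. Leaving out a library could not be run with 1 per genotype. No paired analysis was possible because each genotype has 1 library and no result comes from a test. Without differing genes no cluster was named capillary endothelial-like, and none was named venous endothelial-like there, with doublets kept or with the 3 genes used.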
